A study of Mus musculus with 36 samples.

Results

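Liver RNA of CTRL mice fasted for 24 h was set against liver RNA of fed CTRL mice that had received CL316243, 2 conditions in which adipose tissue releases fatty acids to the liver. The arrays were chosen by their labels: all 6 CTRL fasted arrays and all 6 CTRL arrays of the fed, agonist-treated group, 12 of the 36 arrays of the series, with 1 array per mouse. All mice were males of the C57Bl/6J strain. CTRL is the label of the controls for AAKO mice, which lack ATGL, the main triglyceride lipase of fat cells, in white adipose tissue. Neither the Cre driver nor the ages are stated in the labels used here, nor whether the mice of a group came from separate litters or cages. The p-values therefore measure only the spread between mice within groups, pooled over all 36 arrays of the series. CL316243, an agonist of the β3 adrenergic receptor of fat cells, was dosed once at 3 mg/kg at ZT10, by gavage in a carboxymethyl cellulose vehicle (ZT counts the hours since lights on). Every mouse was killed at ZT16, in the dark phase. The labels give a gavage for the agonist group only, so agonist, gavage and vehicle cannot be told apart, and the fasted mice differed from the agonist mice in food as well. Both groups belong to experiment 1, and each of the 2 wash batches holds 3 arrays of each. The fed CTRL mice belong to experiment 2, where experiment and condition cannot be told apart. Their levels are given below as a description, without a test.

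Activation of the β3 receptor raises cAMP in fat cells and sets off lipolysis within hours, and the released fatty acids reach the liver, where they can act as ligands of the nuclear receptor PPARα. A fast also brings fatty acids to the liver, but over a longer time and with low insulin, high glucagon and high glucocorticoids, which act on gluconeogenesis, amino acid breakdown and the sterol regulatory factors SREBP-1 and SREBP-2. Both the feeding state and the time of the last meal are also known to set the phase of the liver clock.

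The liver profile differed widely between both conditions. A gene was called at an adjusted p under 0.05 in limma, and 8989 of 24251 genes tested (37.1%) were called: 4317 (17.8% of those tested) were higher after fasting and 4672 (19.3%) were lower, so 48.0% of the calls were higher. With the authors' deposited table as the source that share was 59.9%. At an unadjusted p under 0.05 there were 10857 genes. Of the called genes, 1885 (7.77% of those tested) differed by 2-fold or more, 1056 of them higher and 829 lower, and the median size of a called log2 difference was 0.558. The arrays of both groups did not overlap for 4341 genes (17.9%). The median log2 difference over all genes tested was -0.018. Values are log2 signal scaled to each array's 75th percentile, so that 0 is the brightness of that percentile, and levels of different genes cannot be compared on this scale. A rise or fall below is a called difference of fasted against agonist mice. Each gene was read by 1 probe of the array, placed on mm9 by the files, with no word on exon, intron or UTR. Of 3655 called genes with another tested probe, 924 had such a probe with a difference of the opposite sign. The probe of Cyp2b10 lies at chr7:26711522-26711581, that of Cdkn1a at chr17:29237377-29237436, that of Arntl at chr7:120456978-120457037 and that of Cxcl1 at chr5:91322080-91322139.

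On principal components of the 12 arrays, the groups separated along the first, which held 44.9% of the variance. The 6 agonist arrays lay close together, between -49.5 and -43.0, and the 6 fasted arrays were spread from 26.3 to 74.3. Fasted replicate 2 lay apart from the others at 74.3 on the first and 63.1 on the second component (13.2% of the variance), and fasted replicate 5 lay nearest to the agonist arrays. The gene-wise SD was larger in the fasted group for 14991 genes, with a median SD of 0.249 against 0.204. Correlations between arrays of 1 group ran from 0.97766 to 0.99423. Without fasted replicates 2 and 5, 8338 genes were called, 7578 of them also called in the same direction with all arrays.

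**Figure D1:**
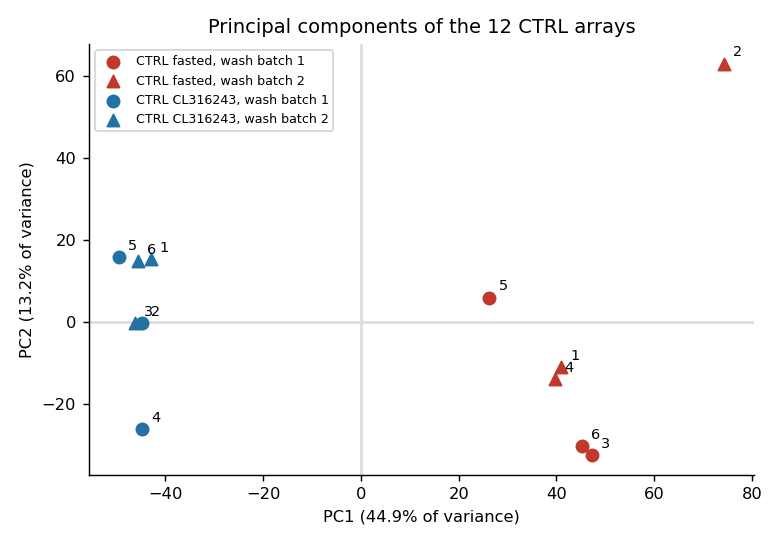
Scores of the 12 CTRL arrays on the first and second principal components of all genes tested (axes give the share of variance in percent); each point is 1 mouse, numbered by replicate, with colour for the group and shape for the wash batch. The agonist arrays lie between -49.5 and -43.0 on the first component and the fasted arrays between 26.3 and 74.3, with replicate 2 apart on the second.

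Genes of fatty acid use were higher after the fast. Of 45 PPARα targets tested, 31 rose and 1 fell, with a median log2 difference of 0.60, against 17.8% and 19.3% called in these directions and a median of -0.02 over all genes. Cyp4a14 and Cyp4a10, fatty acid ω-hydroxylases, Cidec and Plin4, proteins of lipid droplets, and Pdk4, a kinase that restrains pyruvate oxidation, led the list. Within wash batches 1 and 2, 21 and 26 targets were higher. The shares of 17.8% and 19.3% over all genes are also the reference for the counts of every list below.

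Cyp4a14 signal ran from 2.45 to 3.10 on the fasted arrays (median 2.84) and from -2.83 to -0.54 on the agonist arrays (median -1.54). The groups lay far apart, with a log2 difference of 4.55 ± 0.35 (standard error of the fit, adjusted p = 1.24e-11, n = 6 per group, limma). In the fed mice of experiment 2 it was lower than in either group, from -5.10 to -3.95. Cidec ran from 4.61 to 7.70 after the fast (median 6.61) and from 1.23 to 3.72 after the agonist (median 2.02), without overlap, a log2 difference of 4.12 ± 0.41 (adjusted p = 2.64e-09). Fed mice had 0.04 to 0.91. Pdk4 differed in another way: fasted arrays ran from 1.20 to 4.31 (median 2.81), agonist arrays from -1.81 to -0.79 (median -1.04), and fed arrays from -1.18 to 0.45, so that the agonist arrays overlapped the fed ones. Its log2 difference between fasted and agonist mice was 4.00 ± 0.48 (adjusted p = 8.54e-08).

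Among enzymes of peroxisomal and mitochondrial oxidation the differences were of unequal size. Ehhadh, the bifunctional enzyme of peroxisomal oxidation, had a log2 difference of 2.77 ± 0.24 (adjusted p = 1.52e-10), with fasted arrays from 6.59 to 7.90 and agonist arrays from 4.06 to 5.30. Acot1, a cytosolic acyl-CoA thioesterase, rose by 2.26 ± 0.37 (adjusted p = 1.27e-05), and fasted replicate 5 was the one array that came down to the agonist range, at 5.41. Plin4 rose by 2.54, Plin5 by 1.76, and Cyp4a10 by 3.55, all without overlap. The medium-chain dehydrogenase Acadm rose by 0.54 ± 0.09 and Hadhb, a subunit of the trifunctional protein, by 0.51 ± 0.08, both also without overlap of the arrays.

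Several well-known targets differed little between fasted and agonist mice, or did not pass the test. Cpt1a, the carrier step of fatty acid entry into mitochondria, was 0.29 ± 0.11 higher (adjusted p = 0.0425) and Angptl4, an inhibitor of lipoprotein lipase, 0.60 ± 0.23 higher (adjusted p = 0.0442), and 15 and 13 of 28 other settings of the analysis ended these calls. Fgf21, a fasting hormone of the liver, ran from 0.73 to 2.98 after the fast (median 2.78) and from 0.76 to 2.25 after the agonist (median 1.09), a log2 difference of 0.83 ± 0.59 that was not called (adjusted p = 0.287). In fed mice it lay between -3.42 and -0.98. Plin2, a coat protein of lipid droplets, was at 7.0 to 8.36 after the fast and 7.62 to 8.51 after the agonist (log2 difference -0.14 ± 0.25, adjusted p = 0.691), and at 5.57 to 5.90 in fed mice. The binding protein Fabp1 was the 1 target that fell, by 0.52 on the log2 scale.

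**Figure D2:**
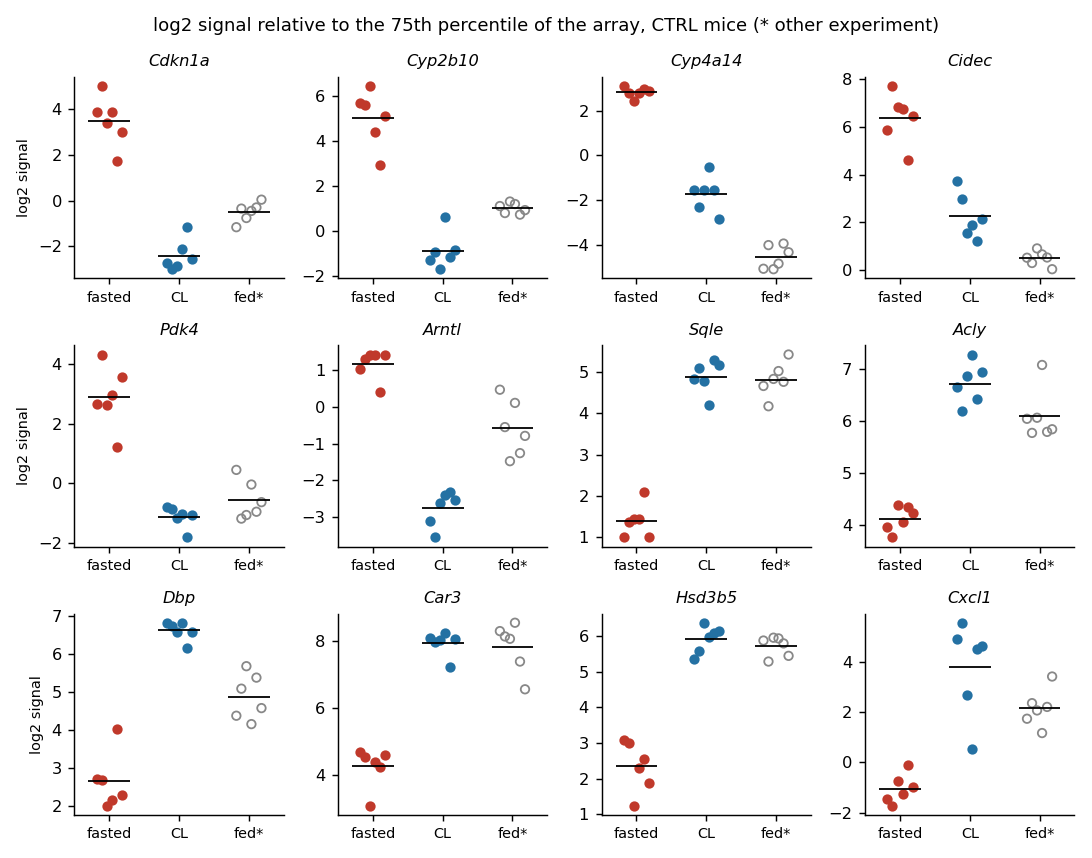
Log2 signal, scaled to each array's 75th percentile, for 12 genes in CTRL mice: each point is 1 array and the line is the group mean, n = 6. Filled points are fasted (red) and CL316243 (blue) mice, which do not overlap for any of these genes; open grey points are the fed mice of the other experiment, shown as a description.

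In ketone body synthesis, 3 of 6 genes were called higher and 1 lower, but only 1 was called higher under median scaling, with slide as a fixed factor, or without any 1 of fasted replicates 1, 3 and 4 and agonist replicates 1, 2, 3, 4 and 6. The monocarboxylate carrier Slc16a1 was 0.32 higher (adjusted p = 0.0435), and 15 of 28 settings ended the call. Bdh1, the dehydrogenase that forms 3-hydroxybutyrate, fell by 0.90 ± 0.24 on the log2 scale (adjusted p = 0.00393), without overlap, although fasted replicate 2 at 4.33 stood below the other 5.

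For gluconeogenesis 6 of 14 genes rose and 1 fell (median 0.25). Median scaling gave 3 falls. Pcx, pyruvate carboxylase, rose by 0.40 on the log2 scale (adjusted p = 6.86e-05) and Fbp1, fructose bisphosphatase, fell by 0.31 (adjusted p = 0.00148). Neither Pck1 nor G6pc passed the test. Pck1, phosphoenolpyruvate carboxykinase, had a log2 difference of -0.20 ± 0.18 (adjusted p = 0.426), and G6pc, the catalytic subunit of glucose-6-phosphatase, of 0.69 ± 0.39 (adjusted p = 0.175). Tat and Got1, aminotransferases counted in that list, were higher by 1.29 ± 0.13 and 1.09 ± 0.19.

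Enzymes that break down amino acids and dispose of their nitrogen were mostly higher after fasting: 16 of 29 rose, 4 fell and the median was 0.41. The arrays did not overlap for 15, against 17.9% of all genes. Sdsl, a serine dehydratase-like enzyme, was at 4.93 to 5.84 on fasted arrays (median 5.30) and 3.15 to 3.53 on agonist arrays (median 3.41), a log2 difference of 2.00 ± 0.14 (adjusted p = 1.66e-12). Aass, which starts lysine breakdown, rose by 1.88 ± 0.17 (adjusted p = 4.82e-10). The urea cycle was split. Asl, argininosuccinate lyase, was at 7.42 to 7.69 after the fast and 5.96 to 6.11 after the agonist, a difference of 1.51 ± 0.10 (adjusted p = 1.17e-12), Cps1, carbamoyl phosphate synthetase, rose by 0.92 ± 0.12 and Arg1, arginase, by 0.87 ± 0.07, each without overlap, while Otc, ornithine transcarbamylase, fell by 0.42 on the log2 scale (adjusted p = 0.0033). For Asl and Cps1 the fed mice lay between both groups, with medians of 6.56 and 6.70. Glul, glutamine synthetase of the perivenous hepatocytes, fell by 0.69 on the log2 scale (adjusted p = 4.64e-08), while its other probes, 2 in number, read -0.15 and 0.00. The count of falls in this list was 2 in place of 4 under quantile normalization, with the authors' table, and without any 1 of fasted replicates 1, 2 and 4 and agonist replicate 2.

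**Figure D3:**
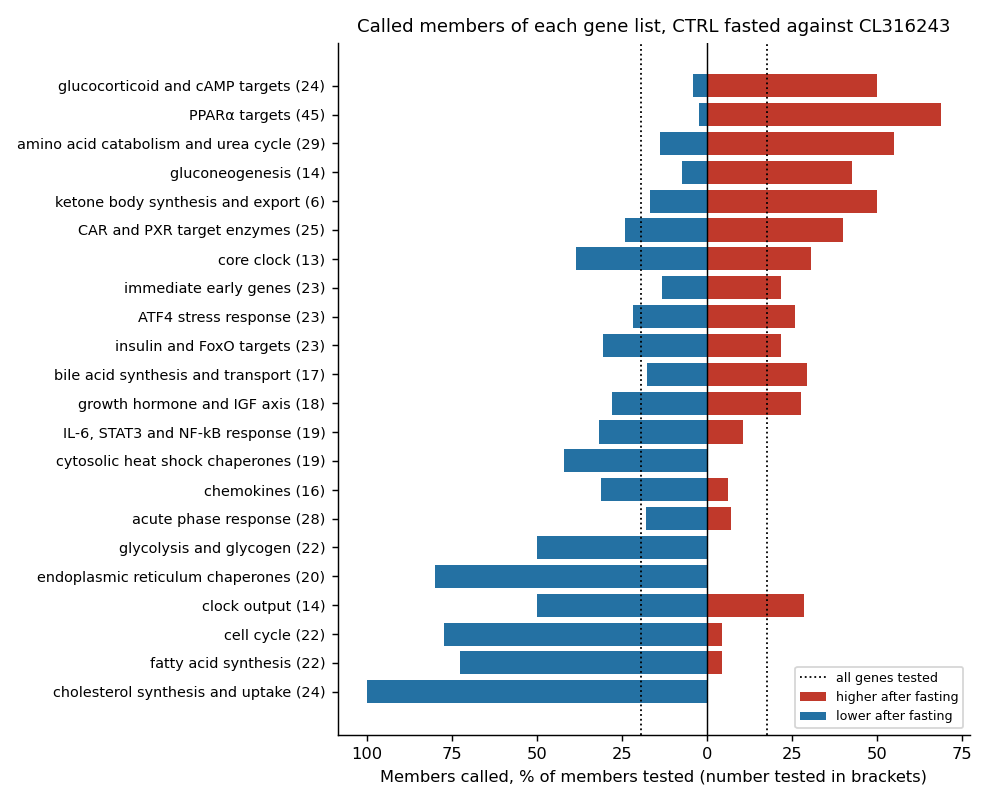
Percent of the tested members of each list (number in brackets) called higher (red, to the right) or lower (blue, to the left) after fasting than after CL316243, ordered by median difference; dotted lines mark the 17.8% and 19.3% of all genes tested. Cholesterol synthesis, fatty acid synthesis, cell cycle and endoplasmic reticulum chaperones reach far to the left and PPARα targets to the right.

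Genes that handle glucose were lower after the fast, with 11 of 22 genes of glycolysis and glycogen down, none up and a median of -0.54. Slc2a2, the glucose carrier GLUT2, fell by 1.53 and Pklr, pyruvate kinase, by 1.08 on the log2 scale, and the agonist medians of 2.75 and 1.02 were near the fed medians of 2.66 and 0.89.

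Fatty acid synthesis differed more. Of 22 genes, 16 fell and 1 rose, with a median of -1.12, and 12 and 15 were lower within wash batches 1 and 2. Acly, which makes cytosolic acetyl-CoA, ran from 3.77 to 4.39 after the fast (median 4.15) and from 6.19 to 7.27 after the agonist (median 6.74), a log2 difference of -2.58 ± 0.20 (adjusted p = 1.24e-11). Elovl6, the elongase of palmitate, fell by 2.61 ± 0.24 (adjusted p = 5.07e-10) and Acaca, acetyl-CoA carboxylase, by 1.83 ± 0.17 (adjusted p = 6.37e-10). All 3 had agonist medians above the fed medians, 6.74 against 5.94 for Acly, 4.97 against 4.15 for Elovl6 and 5.24 against 4.31 for Acaca.

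The order was different for other lipogenic genes, where fed mice had the highest levels. Srebf1, the gene of SREBP-1, was at 3.01 to 4.28 after the fast, 4.74 to 5.17 after the agonist and 6.48 to 7.33 in fed mice, with a log2 difference of -1.54 ± 0.19 between the first pair (adjusted p = 1.15e-07). Fasn, fatty acid synthase, was at 4.91 to 6.69, 6.68 to 7.71 and 7.62 to 8.86 (log2 difference -1.36 ± 0.26, adjusted p = 8.2e-05), and the fasted and agonist arrays met at 6.69 and 6.68. Thrsp, a lipogenic protein that responds to carbohydrate, fell by 2.44 ± 0.40, and Scd1, the stearoyl-CoA desaturase, by 1.35 ± 0.19. Elovl5, an elongase of polyunsaturated fatty acids, was the 1 member that rose (log2 difference 0.42 ± 0.15, adjusted p = 0.0287), a call that 9 of 28 settings ended.

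Cholesterol synthesis and uptake was the list with the most uniform difference among those described here: all 24 members tested of 25 were lower after fasting. The median was -2.06, and the arrays did not overlap for 22, against 17.9% of all genes. Within wash batches 1 and 2 there were 22 and 23 lower. This list holds the enzymes from acetyl-CoA to cholesterol, genes of cholesterol uptake and their regulators, most of which SREBP-2 is known to drive.

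Squalene epoxidase, Sqle, ran from 1.00 to 2.10 on fasted arrays (median 1.41) and from 4.19 to 5.28 on agonist arrays (median 4.96), a log2 difference of -3.49 ± 0.25 (adjusted p = 4.84e-12). Fdps, which makes farnesyl pyrophosphate, was at 3.39 to 4.36 after the fast and 6.53 to 7.32 after the agonist, a difference of -3.09 ± 0.20 (adjusted p = 6.72e-13). The groups stood well apart for both. Nsdhl, a sterol dehydrogenase, fell by 3.04, Cyp51, the lanosterol demethylase, by 2.98 and Msmo1, the sterol methyl oxidase, by 2.95 on the log2 scale. Hmgcs1, which makes HMG-CoA in the cytosol, fell by 2.46 ± 0.21, with agonist arrays at 6.12 to 7.22 (median 6.92) and fed arrays at 4.74 to 6.28 (median 5.73).

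Srebf2, the gene of SREBP-2, was at 1.79 to 2.04 after the fast and 2.14 to 2.41 after the agonist, a difference of -0.38 ± 0.06 (adjusted p = 1.05e-05). Fed medians were close to the agonist medians for Sqle (4.80 against 4.96), Fdps (6.84 against 7.06) and Srebf2 (2.31 for both).

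The 250 bases upstream of the start were read from the RefSeq promoter table of GRCm38.p6, which holds 17 of the 25 genes. CCAAT, the letters bound by NF-Y, a known partner of SREBP, occurred on either strand in 16 of these 17, and in 39.6% of 13696 promoters of genes tested and 37.5% of all 27025. The sterol element core CACCCCAC was found on either strand in 2 of the 17, Hmgcs1 and Acat2, against 3.31% of the tested promoters and 2.98% of all. These are matches of letters, not sites shown to be used. The stretches of the 3 genes with the largest fall among those in the table are shown, and that of Hmgcs1, which holds both patterns, with the matches in capitals (ATTGG is CCAAT on the other strand), 5′ to 3′ along the gene. They lie at chrX:72918271-72918520 (plus strand) for Nsdhl, chr5:4104698-4104947 (minus) for Cyp51, chr8:64733579-64733828 (minus) for Msmo1 and chr13:119690101-119690350 (plus) for Hmgcs1.
Nsdhl: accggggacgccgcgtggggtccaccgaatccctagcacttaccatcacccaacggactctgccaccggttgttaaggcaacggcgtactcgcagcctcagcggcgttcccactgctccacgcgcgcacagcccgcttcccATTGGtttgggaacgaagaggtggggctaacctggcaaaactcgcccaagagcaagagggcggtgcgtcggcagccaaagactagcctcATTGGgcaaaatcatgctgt
Cyp51: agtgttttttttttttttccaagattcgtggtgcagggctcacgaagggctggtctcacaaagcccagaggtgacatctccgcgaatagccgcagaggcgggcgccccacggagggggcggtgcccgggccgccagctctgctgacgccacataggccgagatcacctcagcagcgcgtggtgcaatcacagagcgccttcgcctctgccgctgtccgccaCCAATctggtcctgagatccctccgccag
Msmo1: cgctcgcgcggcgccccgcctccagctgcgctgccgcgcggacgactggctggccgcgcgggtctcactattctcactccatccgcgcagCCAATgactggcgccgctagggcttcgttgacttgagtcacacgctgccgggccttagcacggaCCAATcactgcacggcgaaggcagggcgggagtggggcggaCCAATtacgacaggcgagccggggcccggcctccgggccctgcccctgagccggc
Hmgcs1: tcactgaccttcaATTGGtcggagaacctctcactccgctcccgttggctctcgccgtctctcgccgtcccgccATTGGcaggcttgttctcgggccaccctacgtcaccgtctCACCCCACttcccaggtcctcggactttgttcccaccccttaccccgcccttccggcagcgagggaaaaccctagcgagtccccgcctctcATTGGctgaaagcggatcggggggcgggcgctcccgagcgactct
In this window Cyp51 holds the CCAAT letters in 1 place, Nsdhl in 2, and Msmo1 and Hmgcs1 in 3 each, and their log2 differences lay between -3.04 and -2.46.

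**Figure D4:**
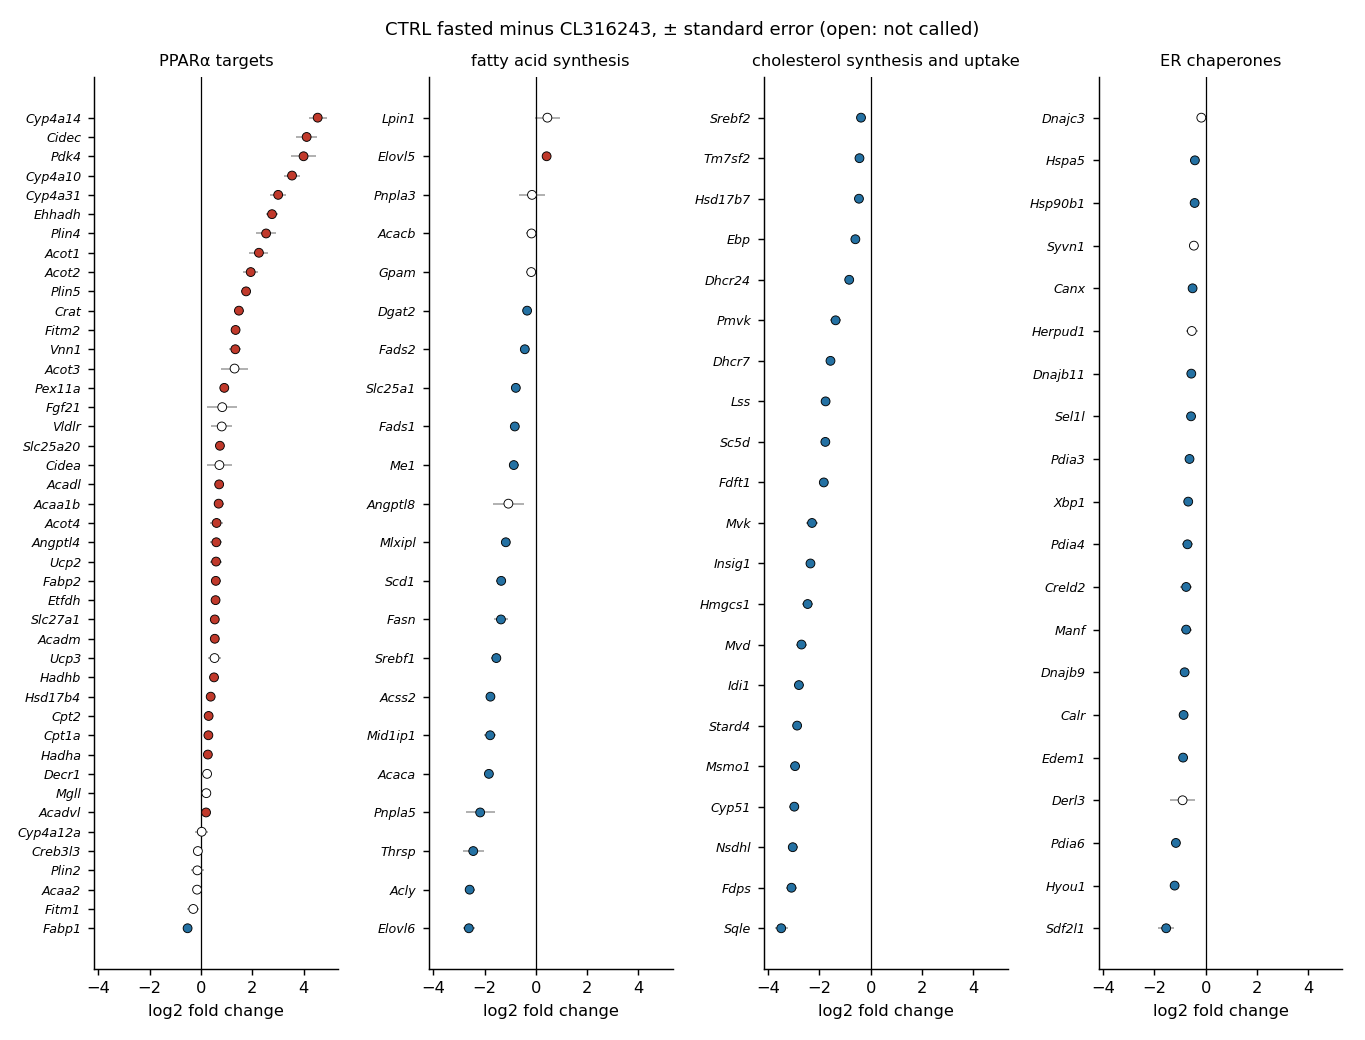
Log2 difference (fasted minus CL316243, CTRL mice, n = 6 per group) of tested members of 4 lists (a few members are not drawn), with the standard error of the fit as a grey bar; red and blue points are called higher or lower and open points are not called. The cholesterol genes drawn lie left of 0, from -3.49 for Sqle to -0.38 for Srebf2, while PPARα targets reach 4.55 at Cyp4a14.

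Chaperones of the endoplasmic reticulum, which fold secreted proteins and rise when folding is under load, were lower after fasting: 16 of 20 fell, none rose, and the median was -0.69. Within wash batches 1 and 2 there were 8 and 13 lower. Pdia6, a protein disulphide isomerase, ran from 5.43 to 6.14 after the fast (median 5.64) and from 6.68 to 7.09 after the agonist (median 6.84), a log2 difference of -1.16 ± 0.14 (adjusted p = 5.03e-08). Hyou1, a large chaperone of the HSP70 family, fell by 1.21 ± 0.18 and Sdf2l1, a cofactor of BiP, by 1.54 ± 0.31, where 1 fasted array at 2.47 reached into the agonist range. Xbp1, the transcription factor that drives many of these genes, fell by 0.68 ± 0.13 (adjusted p = 5.74e-05).

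Hspa5, which encodes BiP itself, was at 6.56 to 6.91 after the fast, 6.94 to 7.57 after the agonist and 7.77 to 8.67 in fed mice. The log2 difference of the first pair was -0.42 ± 0.14 (adjusted p = 0.0152), a call that 5 of 28 settings ended. Creld2, a secreted stress-responsive chaperone, followed the same order, with medians of 4.81, 5.49 and 7.38 and a log2 difference of -0.76 ± 0.24 (adjusted p = 0.0115). Calr, calreticulin, fell by 0.86 ± 0.17, with an overlap of the arrays.

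The same promoters were available for 18 of these 20 genes. The ER stress element, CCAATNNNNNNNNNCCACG on either strand, which contains a CCAAT, was present in 9 of the 18, against 0.175% of the promoters of genes tested (24 promoters) and 0.13% of all (35). CCAAT alone was present in 17 of 18. These are matches of letters as well. Patterns and lists were chosen by hand with earlier results known. The shares here and for the cholesterol genes are therefore a description and do not test a link to the fall. Of the 9 genes with the longer pattern, 4 are shown: the 3 with the largest called fall and Hspa5, with the pattern in capitals, which begins with CGTGG where it lies on the other strand. The stretches lie at chr12:17266339-17266588 (plus strand) for Pdia6, chr8:84846932-84847181 (minus) for Calr, chr15:88819396-88819645 (plus) for Creld2 and chr2:34771840-34772089 (plus) for Hspa5.
Pdia6: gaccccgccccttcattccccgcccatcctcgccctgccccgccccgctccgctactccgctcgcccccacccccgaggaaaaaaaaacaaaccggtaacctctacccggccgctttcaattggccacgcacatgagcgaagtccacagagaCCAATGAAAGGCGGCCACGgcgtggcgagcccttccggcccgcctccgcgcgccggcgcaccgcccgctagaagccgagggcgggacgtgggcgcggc
Calr: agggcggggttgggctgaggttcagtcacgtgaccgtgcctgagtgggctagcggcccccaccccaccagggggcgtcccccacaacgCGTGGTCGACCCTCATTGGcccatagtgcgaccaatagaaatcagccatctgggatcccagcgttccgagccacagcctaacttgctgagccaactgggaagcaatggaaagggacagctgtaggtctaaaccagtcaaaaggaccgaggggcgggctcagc
Creld2: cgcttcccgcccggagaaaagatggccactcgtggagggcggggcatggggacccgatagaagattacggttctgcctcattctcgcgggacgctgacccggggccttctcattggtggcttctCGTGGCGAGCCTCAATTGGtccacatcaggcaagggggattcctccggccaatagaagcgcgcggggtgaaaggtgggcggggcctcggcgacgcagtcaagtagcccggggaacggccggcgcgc
Hspa5: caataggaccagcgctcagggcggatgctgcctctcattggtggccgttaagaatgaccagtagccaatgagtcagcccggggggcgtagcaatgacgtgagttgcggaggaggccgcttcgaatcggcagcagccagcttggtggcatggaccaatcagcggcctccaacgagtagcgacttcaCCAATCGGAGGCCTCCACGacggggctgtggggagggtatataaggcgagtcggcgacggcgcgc
These genes fell by unequal amounts, from 1.16 for Pdia6 to 0.42 for Hspa5 on the log2 scale, with the same pattern in the window.

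Of 19 cytosolic heat shock chaperones 8 fell, none rose and 11 were not called, with a median of -0.21. Quantile normalization and the authors' table each gave 3 rises and 7 falls. Chordc1, a cochaperone of HSP90, fell by 1.21 ± 0.14 (adjusted p = 3.46e-08) and Hsph1, an exchange factor of HSP70, by 1.05 ± 0.20. Hspa1b, the inducible HSP70, was at -0.43 to 1.20 after the fast, 0.87 to 1.62 after the agonist and 3.20 to 4.76 in fed mice, so the fed arrays of the other experiment stood above both.

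Among the largest rises after fasting were Cyp2b10, which CAR and PXR, nuclear receptors for xenobiotics, are known to induce, and its paralog Cyp2b9. Both were placed in the list of CAR and PXR target enzymes. Cyp2b10 ran from 2.92 to 6.43 on fasted arrays (median 5.36) and from -1.68 to 0.62 on agonist arrays (median -1.02), a log2 difference of 5.89 ± 0.58, or 59.4-fold (adjusted p = 1.73e-09). Cyp2b9 differed by 5.99 ± 0.64 (adjusted p = 8.35e-09). Fed mice lay between both groups for each, at 0.74 to 1.32 for Cyp2b10 and -0.58 to -0.20 for Cyp2b9. These paralogs are similar in sequence, and cross-hybridisation was not tested.

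The list as a whole was split, with 10 of 25 members up, 6 down and a median of 0.14 (64% called, against 37.1% of all genes). Sult1e1, oestrogen sulphotransferase, rose by 3.51 ± 0.59 and Gadd45b, a stress-responsive gene that CAR also induces, by 3.21 ± 0.32. Both had fasted replicate 2 as their highest array, at 3.62 and 3.85. Nr1i3, the gene of CAR, was 0.78 ± 0.15 higher (adjusted p = 0.00014). Cyp2c55 went the other way, with fasted arrays from -2.54 to -1.45 and agonist arrays from -0.54 to 1.27 (log2 difference -2.21 ± 0.29, adjusted p = 2.54e-07).

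Bile acid genes were split too, with 5 of 17 up and 3 down (47.1% called, against 37.1% of all genes). Slco1a4, an organic anion carrier that PXR induces, rose by 2.01 ± 0.22 and Cyp8b1, the sterol 12α-hydroxylase, by 1.01 ± 0.22. Slco1a1, another carrier of the family, fell by 1.82 ± 0.14 and Abcb11, the bile salt export pump, by 1.32 ± 0.12, where agonist arrays at 6.89 to 7.49 were above the fed arrays at 6.52 to 6.73. Cyp7a1, the rate-limiting enzyme of bile acid synthesis, did not pass the test (log2 difference -0.49 ± 0.42, adjusted p = 0.39).

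Genes of the circadian clock differed in both directions. Arntl, the gene of the activator BMAL1, ran from 0.41 to 1.43 after the fast (median 1.37) and from -3.56 to -2.31 after the agonist (median -2.57), a log2 difference of 3.92 ± 0.28 (adjusted p = 4.84e-12). Fed arrays ran from -1.48 to 0.47. Among repressors of the clock some were lower after the fast, Per3 by 2.63 ± 0.32, Per2 by 1.58 ± 0.16 and the Arntl repressor Nr1d1 by 1.67 ± 0.38 on the log2 scale. Another Per2 probe read -0.22. Per1, of the same family, did not pass the test (log2 difference 0.12, adjusted p = 0.769). Cry1, a repressor that peaks later, was higher by 0.88 ± 0.14.

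Dbp, a clock-driven transcription factor, ran from 2.02 to 4.04 on fasted arrays (median 2.49) and from 6.15 to 6.82 on agonist arrays (median 6.66), a difference of -3.96 ± 0.33 (adjusted p = 1.05e-10). Its relative Tef fell by 1.37 ± 0.14. Bhlhe41, a clock repressor also known as DEC2, was called lower (adjusted p = 7.2e-05), with 1 of 6 fasted arrays well above background and 6 of 6 agonist arrays. The size is uncertain, with a log2 difference of -1.84 here and -0.35 after normexp background correction. Over both lists, 4 of 13 core clock genes rose and 5 fell, and 4 of 14 output genes rose and 7 fell, with medians of 0.12 and -0.72, and the output genes had 2 rises without fasted replicate 2 or agonist replicate 6. For Dbp and Nr1d1 the agonist medians stood above the fed medians (6.66 against 4.84 and 1.04 against -1.63), and for Per2 below (2.12 against 4.07). All mice were killed at the same ZT.

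Inducible genes of inflammation varied between mice of both groups. In the acute phase list 5 of 28 fell and 2 rose, where 19.3% of all genes fell and 17.8% rose, and these counts rest on single mice. The list had 2 falls and 4 rises without agonist replicate 5, 2 of each without fasted replicate 4, 3 falls without any 1 of fasted replicates 1 and 6 and agonist replicate 2, and 11 falls without fasted replicate 5. The constitutive serum amyloid Saa4 was at 2.72 to 3.59 after the fast (median 3.08) and 5.4 to 6.51 after the agonist (median 5.81), a log2 difference of -2.72 ± 0.25 (adjusted p = 7.36e-10), and Steap4, a metalloreductase, fell by 2.65 ± 0.36. The inducible Saa1 had a difference of -2.36 ± 1.00 (adjusted p = 0.0646) and Saa2 of -2.45 ± 1.00 (adjusted p = 0.0529), and fasted replicate 5 was at 10.59 and 11.01 for them, against medians of 6.26 and 6.77. Without that mouse the differences were -3.20 (adjusted p = 0.00795) and -3.27 (adjusted p = 0.00627). Saa1 and Saa2 are close paralogs, and their probes may read each other. Mt1, metallothionein, and Hamp, hepcidin, were the 2 members that rose, by 1.73 ± 0.68 (adjusted p = 0.0439) and 0.74 ± 0.20 (adjusted p = 0.00331), and 14 of 28 settings ended the call for Mt1.

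Downstream of IL-6 the feedback inhibitor Socs3 ran from 0.98 to 2.15 after the fast and from 2.92 to 4.49 after the agonist, a log2 difference of -2.23 ± 0.49 (adjusted p = 0.000514). Stat3 fell by 1.13 ± 0.19 and Bcl3, a nuclear cofactor of NF-kB, by 1.78 ± 0.24. For Socs3 and Stat3 the agonist arrays stood above the fed medians of 1.69 and 4.10, with medians of 3.85 and 5.60. Il1b and Cebpd, which belong to the same list of 19, were the 2 that rose, by 1.5 ± 0.30 and 1.30 ± 0.26, and 6 fell. The share called, 42.1%, was near the 37.1% of all genes, and the median of the list was -0.19. In wash batch 2 alone the difference of Il1b was 0.85.

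Cxcl1, a chemokine that attracts neutrophils, had the lowest log2 difference among genes named by rule. It ran from -1.72 to -0.12 on fasted arrays (median -1.11) and from 0.52 to 5.56 on agonist arrays (median 4.58), a difference of -4.86 ± 0.81 (adjusted p = 1.4e-05). Agonist replicates 3 and 4 were well below the other 4, at 2.70 and 0.52. Egr1, an immediate early gene, had the same replicates low, at 1.60 and 1.16, while the other 4 agonist arrays were at 3.82 to 4.74 and the fasted arrays at -0.20 to 1.04 (log2 difference -2.82 ± 0.49, adjusted p = 2.79e-05). The cause of the low pair was not tested.

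Of 16 chemokines tested 5 fell and 1 rose (37.5% called, near the 37.1% of all genes). Cxcl10 was down by 2.18 ± 0.31 and Cxcl13, a B cell chemokine, up by 2.54 ± 0.47. With median scaling 8 fell. Immediate early genes did not move as a block, with 5 of 23 up and 3 down (34.8% called, near the 37.1% of all genes). Without fasted replicate 2 there were 3 up. Klf4 rose by 1.88 ± 0.28 and Nr4a1, an orphan receptor induced by cAMP, by 1.49 ± 0.47 (adjusted p = 0.0117), and both had their highest arrays in the fasted group at 3.13 and 3.14.

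Targets of glucocorticoids and cAMP were mostly higher after the fast, with 12 of 24 up, 1 down and a median of 0.86. Cdkn1a, the cell cycle inhibitor p21, ran from 1.73 to 4.98 (median 3.61) against -2.99 to -1.15 (median -2.62), a log2 difference of 5.86 ± 0.40, or 58.2-fold (adjusted p = 1.48e-12). Fed arrays were at -1.16 to 0.04, of which 1 reached the agonist range. Fkbp5, a feedback regulator of the glucocorticoid receptor, rose by 1.43 ± 0.26, Sgk1, a kinase that receptor induces, by 1.67 ± 0.23 and Tdo2, tryptophan dioxygenase, by 1.09 ± 0.13. Crem, a cAMP-responsive repressor, was the 1 that fell, by 1.08 ± 0.16, while its other 4 probes ran from -1.02 to 0.56. Without fasted replicates 2 and 5 the list had 7 rises, and within wash batch 1 it had 5.

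Genes that insulin represses through FoxO, or induces, moved in both directions, with 5 of 23 up and 7 down. Of this list 52.2% were called, against 37.1% of all genes. Igfbp1, a binding protein of insulin-like growth factors that insulin represses, was at 7.64 to 9.36 after the fast (median 8.07), 3.89 to 6.57 after the agonist (median 6.07) and 1.39 to 5.80 in fed mice, and rose by 2.41 ± 0.59 between the first pair (adjusted p = 0.00141). Eif4ebp3, an inhibitor of translation initiation, rose by 3.30 ± 0.24 (adjusted p = 4.62e-12) and Txnip, which restrains glucose uptake, by 1.51 ± 0.25. Agonist arrays were below the fed arrays for Eif4ebp3, at 4.07 to 4.69 against 5.64 to 6.58.

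The growth hormone list had 5 of 18 up and 5 down (55.6% called, against 37.1% of all genes), with 3 down without agonist replicate 5. Hsd3b5, a male-specific steroid dehydrogenase, ran from 1.24 to 3.09 after the fast (median 2.42) and 5.37 to 6.38 after the agonist (median 6.03), a difference of -3.58 ± 0.24 (adjusted p = 1.65e-12), with fed arrays at 5.29 to 5.96. Cux2, a female-specific repressor, rose by 2.33 ± 0.60 (adjusted p = 0.00234), on 4 of 6 agonist arrays above background, and normexp background correction brought it to 0.62 without a call. Bcl6, a male-biased repressor, fell by 1.66 ± 0.54, while another probe read 0.70. Igf1, the growth factor that growth hormone induces in the liver, did not pass the test (log2 difference 0.15, adjusted p = 0.0642), and the mean of all its probes gave -0.32.

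Cell cycle genes were lower after the fast, 17 of 22 down and 1, Cdkn1a, up, with a median of -0.76. Ccnd1, cyclin D1, ran from -0.78 to 0.34 after the fast (median -0.37) and from 1.96 to 3.44 after the agonist (median 2.72), a log2 difference of -2.92 ± 0.23 (adjusted p = 3.95e-11). Fed arrays were at 0.43 to 1.5, below the agonist arrays. Mcm10, a replication factor, fell by 1.74 ± 0.25, and the proliferation marker Mki67 by 0.74 ± 0.24 (adjusted p = 0.0158).

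Targets of ATF4, the transcription factor of amino acid and ER stress, showed no common direction, with 6 of 23 up and 5 down. Of this list 47.8% were called, against 37.1% of all genes. Ddit4, an inhibitor of mTORC1, rose by 1.97 ± 0.47, with fasted replicate 2 at 7.58 and the other 5 at 2.81 to 4.76. Chac1, which degrades glutathione, fell by 1.77 ± 0.50 (adjusted p = 0.00542) and Mthfd2, of mitochondrial folate metabolism, by 1.53 ± 0.24. Fasted replicate 2 was again highest for Chac1, at 3.04.

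The tissue carried a hepatocyte profile in both groups: all 10 hepatocyte markers were tested, and their mean level was 9.28 to 9.49 on the fasted arrays and 9.31 to 9.66 on the agonist arrays. Of these markers 1 rose and 4 fell, with 7 falls under median scaling, 1 under quantile normalization and 2 without fasted replicate 4 or agonist replicate 5. In whole liver, fewer cells of a type and less RNA per cell cannot be told apart. Endothelial markers were higher after fasting, with 8 of 10 up, none down and a median of 0.77, and their summed signal (in units of the array's 75th percentile signal) was 33.1 to 69.3 on fasted, 26.6 to 50.6 on agonist and 52.8 to 78.3 on fed arrays. Within wash batch 2 only 2 of them were called higher. Lyve1, a receptor of sinusoidal endothelium, rose by 1.98 ± 0.28 and Tek, the angiopoietin receptor, by 1.07 ± 0.25.

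Stellate and fibroblast markers were split, with 3 of 10 up and 2 down, and their summed signal was 91.1 to 115 on fasted and 54 to 79 on agonist arrays, without overlap. A summed signal mostly follows the brightest members of a list. The mean log2 levels of these markers overlapped, at 0.5 to 0.89 on fasted and 0.49 to 1.05 on agonist arrays. The collagens Col3a1 and Col1a1 fell by 1.95 ± 0.36 and 1.30 ± 0.39, and Dcn, decorin, and Rgs5, a pericyte gene, rose by 0.77 ± 0.11 and 1.35 ± 0.21. For Col3a1 the other probes, 2 in number, read -0.61 and -0.16. Of 12 Kupffer cell and macrophage markers 1, Cd163, rose (log2 difference 0.85 ± 0.25, adjusted p = 0.00707), and the summed signal was 47.2 to 152 on fasted and 31.2 to 97.7 on agonist arrays. None of 12 neutrophil markers was called in limma (0 at an unadjusted p under 0.05), with a summed signal of 161 to 707 against 168 to 400; S100a8 was at 4.10 in fasted replicate 2, where the group median was -1.58. Of 9 lymphocyte markers 2 rose, and the summed signal of 65.3 to 82.8 on fasted arrays did not overlap the 29.8 to 51.3 on agonist arrays. Their mean log2 levels did overlap, at -2.1 to -1.25 on fasted and -2.4 to -1.57 on agonist arrays. Erythroid markers had 3 of 5 up and 1 down, with Hbb-b1, a β globin, up by 1.26 ± 0.28 and a summed signal of 353 to 734 against 204 to 537. Cholangiocyte markers had 2 of 6 down, among them Spp1, osteopontin, at -1.16 ± 0.26, with a lower summed signal after the fast (5.47 to 8.75 against 9.55 to 16.4). Their mean log2 levels overlapped, at -2.17 to -1.86 on fasted and -1.91 to -1.29 on agonist arrays. Of 6 adipocyte markers Fabp4 rose by 1.12 ± 0.24 and 1 fell (summed signal 3.97 to 13.1 against 2.74 to 4.06), and of 5 pancreas markers tested Cela1, an elastase, fell by 1.56 ± 0.15, with summed signals of 18.9 to 27.3 against 43.8 to 68.3. The mean log2 levels of the pancreas markers overlapped, at 0.25 to 1.36 on fasted and 0.77 to 0.96 on agonist arrays. The part of cell composition in the other differences was not tested.

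Some of the largest differences were in genes outside these lists. Car3, carbonic anhydrase 3, abundant in liver and fat, was at 3.08 to 4.69 after the fast (median 4.47) and 7.23 to 8.23 after the agonist (median 8.05), a log2 difference of -3.68 ± 0.30 (adjusted p = 5.04e-11), with fed arrays at 6.56 to 8.55. Fabp5, a fatty acid binding protein, fell by 3.56 ± 0.38 and had agonist arrays at 5.67 to 6.81 and fed arrays at 4.39 to 6.03. Serpina7, thyroxine-binding globulin, fell by 3.44 ± 0.41 and the serpin Serpina9 by 3.09 ± 0.30. Chrna4, a nicotinic receptor subunit, was called lower and was not well above background on any fasted array, so its size is uncertain. It was 3.98-fold lower when its level there was raised to the lowest signal of probes well above background. Over 27 other settings its log2 difference ran from -4.24 to -0.67. Gm12718 was called lower, with 1 of 6 fasted arrays above background, and its size is uncertain (log2 difference -3.96 here and -1.08 after normexp).

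Among the rises, Tg, the thyroglobulin gene, was called higher (adjusted p = 9.2e-10), with 1 of 6 agonist arrays above background and 6 of 6 fasted arrays, and its size is uncertain (log2 difference 4.64 here and 1.52 after normexp). E030018B13Rik ran from 3.63 to 5.13 after the fast (median 4.15) and from -2.06 to 0.55 after the agonist (median -0.84), a difference of 5.00 ± 0.34 (adjusted p = 1.65e-12). The groups were far apart, and fed arrays lay between at 0.68 to 1.66. Itga2, an integrin subunit, was called higher and was not well above background on any agonist array, so its size is uncertain too. It was 3.30-fold higher with the agonist level raised in the same way as for Chrna4. Over 27 other settings its log2 difference ran from 0.50 to 4.60. 1700025C18Rik and 4930579F01Rik, transcripts without a known role here, were called higher, with 1 and 2 of 6 agonist arrays above background, and had log2 differences of 4.52 and 4.31 here but 1.18 and 1.58 after normexp.

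The same contrast was tested in AAKO mice, fasted against CL316243, and the difference between genotypes as an interaction in the same model. In AAKO 14551 genes (60%) were called. The interaction was called for 7718 genes (31.8%). Of the 8989 genes called in CTRL, 5330 had no called interaction and 3659 had one: for 2310 the difference had the same sign and was larger in AAKO, for 421 it was smaller, and for 928 it had the opposite sign.

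The interaction was not called for Cyp2b10 (log2 difference 5.89 in CTRL and 6.37 in AAKO, adjusted p = 0.71), Cdkn1a (5.86 and 6.64), Cidec (4.12 and 4.68), Arntl (3.92 and 4.23), Sqle (-3.49 and -2.99) or Asl (1.51 and 1.48). It was called for 28 of 45 PPARα targets, 13 of 24 cholesterol genes, 8 of 22 fatty acid synthesis genes and 17 of 20 ER chaperones. The share over all genes tested was 31.8%, and that of the fatty acid synthesis list was near it. Ehhadh differed by 2.77 in CTRL and 0.47 in AAKO (interaction adjusted p = 4.6e-06). For Acly the values were -2.58 and 0.17 (adjusted p = 1.8e-08). Fdps, Cyp51 and Nsdhl had -3.09, -2.98 and -3.04 in CTRL against -1.53, -1.40 and -1.64 in AAKO, and Creld2 had -0.76 against -3.04. Some other PPARα targets and cholesterol genes differed more in AAKO. The AAKO difference minus the CTRL difference was -0.94 for Hmgcs1, 1.5 for Cyp4a10 and 2.39 for Angptl4. Within AAKO, 19 of the PPARα targets were called higher after fasting and 15 lower, and 1 cholesterol gene was higher and 20 lower. In the clock, Per2 and Per3 were lower after fasting in CTRL (-1.58 and -2.63) and had 0.30 and 0.59 in AAKO, with interaction adjusted p-values of 3.0e-07 and 2.8e-06, and Egr1 went from -2.82 to 1.19.

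**Figure D5:**
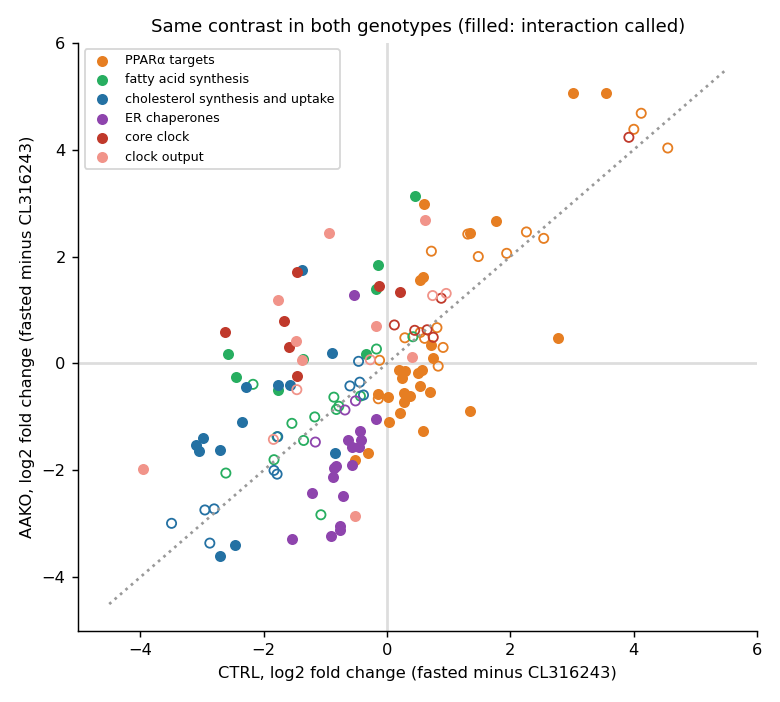
Log2 difference (fasted minus CL316243) in AAKO mice on the vertical axis against the same in CTRL mice on the horizontal axis, for the members of 6 lists, n = 6 arrays per group; filled points have a called interaction and the dotted line marks equal values. Acly (-2.58 in CTRL, 0.17 in AAKO) lies above the line and Ehhadh (2.77 and 0.47) below it.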

How the data were processed

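Liver RNA was labelled with Cy3 and read on 1-colour Agilent arrays. Per the file headers, the intensity values were made by Agilent Feature Extraction 10.10.1.1 with background and trend removal within an array and none between arrays. The submitters' processing notes also name limma. The authors deposited a table of log2 values for 36898 probes, which served as an alternative. Its columns correlated with the log2 signal of their own arrays (r from 0.99874 to 0.99969), so scale and direction are known, and no centring of genes was seen. The sorted values were identical within each of the 6 groups (median 6.974 for CTRL fasted, 6.914 for CTRL CL316243) and differed between them. How its probes were chosen is not given in the sources used here.

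Of 56605 probes, 32994 were named through RefSeq accessions (GRCm38.p6, names only). From the processed intensity, log2 minus log2 of the array's 75th percentile over probes was taken, outlying spots were dropped (2701 over all arrays), and a gene took its probe of highest mean signal. Genes were tested with a probe well above background on at least 5 of 6 arrays of a group. All 36 arrays entered a limma 3.58.1 fit (R 4.3.3, with 1.17.8 of data.table) with 6 group means and wash batch, and Benjamini-Hochberg adjustment over 24251 genes, two-sided. Errors beside differences are standard errors of that fit. On simulated data for this comparison, 154 of 200 changed genes were called (80% of those changed 2-fold), with 11 unchanged genes among the 24251 simulated. The noise was independent and normal, with 1 spread per gene shared by all 6 groups. Far fewer genes were changed than were called here, no array stood apart and the fasted group had no larger spread. These rates therefore need not hold for the measured arrays.

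The gene lists, motifs and comparison were chosen with earlier results of these data known, from general knowledge of liver metabolism. Genes named are the 12 highest and 12 lowest called without overlap, the leading members of each list, genes of a hand-written list and those most variable between mice. The highest and lowest also needed a name from RefSeq and a probe well above background on all 6 arrays of the higher group. Further list members were named after their values were seen, and the report describes a selection of these genes that was also made then. The counts over genes followed by name cover 202, which are all of them but a few that are not reported here. The part of other settings is given at the end, and replicate numbers did not pair the arrays. Array number limits precision. Sequences come from the RefSeq promoter table.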

Additional observations from a re-analysis of the deposited data

Results flagged for a closer look

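Single arrays stood apart from the other 5 of their group in 46 of 428 groups of values examined (10.7%). In the fasted group there were 25 such cases, of which replicate 2 held 15 and replicate 5 held 4. Chance gives about 1 in 20 for separate groups of values that were not chosen by their spread. Here some genes were chosen as the most variable between mice, and the groups of values share the same arrays. The share of 10.7% can therefore not be judged against that rate. Values are log2 signal scaled to each array's 75th percentile. Fasted replicate 2 was highest for Got1 (8.90), Gadd45b (3.85), Chac1 (3.04), Dcn (6.62), Fabp4 (3.61), Gpt2 (6.80), Mmp8 (0.37), Pfkfb3 (2.34) and Ppp1r3g (3.07), and lowest for Fabp1 (9.27), Bdh1 (4.33), Cyp2c29 (6.11), Ttr (8.77), Il1b (-1.96) and 4930579F01Rik (-2.66). Fasted replicate 5 was highest for Dbp (4.04), Steap4 (-0.64) and Saa3 (9.13) and lowest for Acot1 (5.41), and replicate 4 was lowest for Khk (6.75). Fasted replicate 3 was lowest for Cyp2c55 (-2.54), Car3 (3.08) and Igf1 (7.50), highest for Pcx (7.34), and was at 10.60 for Gm35404, where the other 11 arrays of the comparison lay between -3.50 and -2.79.

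Among the agonist arrays, replicate 3 was highest for Cxcl13 (-2.62), Cux2 (-2.83), Hbb-b1 (1.98), Hba-a1 (8.80) and the mean of the erythroid markers (3.80), and lowest for Igfbp1 (3.89), Per1 (2.54) and Asns (3.99). Replicate 4 was highest for Cyp2b9 (-0.80) and Cyp2b10 (0.62) and lowest for Bcl3 (4.05), Tg (-6.94) and Moxd1 (-3.88). Replicate 5 was lowest for Pdk4 (-1.81), Dbp (6.15), Car3 (7.23) and Cd4 (4.67), and replicate 6 was lowest for Bhlhe41 (-4.51), Fkbp5 (2.85) and Derl3 (-0.79) and highest for Col3a1 (2.70).

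The difference between fasted and agonist mice itself differed between genotypes for 7718 genes (31.8% of those tested) by the limma interaction test. Among them were 74 of 202 genes followed by name, a count to be read against that share. The values that follow are the AAKO difference minus the CTRL difference on the log2 scale. In fat use they were 1.5 for Cyp4a10, -2.30 for Ehhadh, 0.90 for Plin5, -0.97 for Acadm, -0.68 for Hadhb, -1.28 for Fabp1, 2.39 for Angptl4, -2.49 for Bdh1, 2.04 for Cyp4a31, -2.23 for Vnn1 and 1.03 for Ppargc1a. For glucose and amino acid genes they were 1.02 for Got1, 1.57 for G6pc, 2.06 for Pklr, -1.06 for Pcx, 0.44 for Khk, 0.91 for Gpt2, 1.81 for Psat1, -0.73 for Otc and 4.71 for Ppp1r3g. Lipid synthesis had 2.75 for Acly, 2.18 for Thrsp, 1.46 for Fasn, 1.56 for Fdps, 1.40 for Nsdhl, 1.59 for Cyp51, -0.94 for Hmgcs1 and 1.26 for Insig1.

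Chaperones and related genes had -1.75 for Sdf2l1, -1.20 for Hyou1, -1.01 for Hspa5, -1.10 for Calr, -2.28 for Creld2, -0.92 for Chordc1, -0.86 for Dnajc3, -2.32 for Derl3 and 2.22 for Hspa1a. Xenobiotic and bile acid genes had 1.15 for Gadd45b, 1.24 for Cyp2c55, 0.56 for Slco1a1, 2.08 for Cyp7a1 and -0.81 for Cyp3a11. Clock genes had 1.88 for Per2, 3.22 for Per3, 2.46 for Nr1d1, 1.99 for Dbp, 1.43 for Tef, 2.96 for Usp2 and 1.90 for Bhlhe40. Inflammation and immediate early genes had -1.59 for Saa4, -1.05 for Bcl3, -3.31 for Il1b, 4.01 for Egr1, 1.11 for Klf4, 1.73 for Fos and 3.26 for Maff. Hormone and stress targets had 1.66 for Sgk1, -1.40 for Eif4ebp3, 3.32 for Txnip, 1.16 for Hsd3b5, 3.02 for Ddit4 and 2.42 for Chac1. Others were 0.93 for Mki67, 1.34 for Ccne1, -1.11 for Hbb-b1, -1.03 for Hba-a1, -0.77 for Cd4, -0.52 for Apoa1, -0.30 for Ttr, -1.47 for Itga2, -1.88 for 1700025C18Rik, -3.94 for 4930579F01Rik, 2.67 for Chrna4 and 2.17 for Gm12718. The last 5 have no measured size, since in CTRL at most 2 of 6 arrays of their dimmer group were well above background.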

How the results depend on the processing

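The number of genes called ran from 8273 to 9244 when 1 array was left out in turn, the number at 2-fold or more from 1676 to 2071, and the interaction from 6940 to 8725. With 3 arrays a group, wash batch 1 alone gave 4551 calls and 4744 interactions, and wash batch 2 alone 6035 calls and 3053 interactions. At 2-fold or more, 694 genes were called after normexp background correction and 996 in the authors' table. The share of calls that were higher after fasting was 48.0%, with 39.1% under median scaling, 43.8% after normexp, 51.7% after quantile normalization, 51.5% with the percentile over spots (chosen after seeing the data) and 59.9% in the authors' table. A replicate block on the 2 groups gave 6601 calls, against 7816 for the same arrays without it. The deviations of same-numbered arrays correlated at -0.17 to 0.214, so the numbers were not taken to pair mice. Of 155 genes followed by name and called, 111 were called in all 28 other settings that could test them, and of 47 not called, 16 were called in some setting. The number of members called in the pathway lists together, 256, ran from 239 to 266 when 1 array was left out. It was 177 within wash batch 1 and 213 within wash batch 2.

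All sign changes among the genes followed by name were in genes that were not called, and their cause was not tested. Normexp gave -0.01 for Adipoq and -0.05 for Cd79a, and median scaling 0.00 for Asns. Alb had 0.03 after quantile normalization and 0.04 in the authors' table, and Igf1 -0.32 with the mean of all probes. With slide as a fixed factor Lcn2 and Hspa1a each had 0.02 and Ppp1r3g 0.06. Wash batch 1 gave 0.34 for Saa3, -0.38 for Moxd1, -0.46 for Per1, -0.27 for Asns and -0.16 for Trib3. Wash batch 2 gave -0.21 for Gm35404, -1.16 for Olfr1535, -0.02 for each of Cyp3a11 and Cd79a, -0.25 for C1qa, -0.89 for Cfd, 1.08 for Ppp1r3g, -0.20 for Timd4 and -0.13 for Vsig4. Without fasted replicates 2 and 5, Plin2 had 0.15, S100a8 -0.47, Moxd1 -0.93, Orm3 -0.83, S100a9 -0.82, Asns -0.53, Per1 -0.10, C1qa -0.27, Timd4 -0.15, Vsig4 -0.21 and Ppargc1a -0.18. Leaving out 1 array gave -0.24 to 0.05 for Plin2, -1.76 to 0.21 for Saa3, -1.55 to 0.46 for Lcn2, -0.14 to 2.71 for Gm35404, -0.82 to 1.16 for Moxd1, -0.24 to 1.21 for Olfr1535, -0.42 to 1.24 for Orm3, -0.10 to 1.44 for S100a9, -0.29 to 0.28 for Asns, -0.72 to 0.29 for Ppp1r3g, -0.08 to 0.39 for Per1, -0.12 to 1.21 for Cfd and -0.08 to 0.25 for Ppargc1a.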
